A study of Mus musculus with 6 samples.

Results

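The subunits described here are the nuclear-encoded proteins of respiratory chain complexes I to IV, taken as every gene whose symbol begins with Ndufa, Ndufb, Ndufc, Ndufs or Ndufv and a number, or is Sdha to Sdhd, or begins with Uqcr, or with Cox4 to Cox8. Of 19938 genes measured with a single symbol, 63 met that rule: 34 of complex I, 4 of complex II, 8 of complex III and 17 of complex IV. The rule reads symbols alone, but it was chosen with earlier results of these data known. Of several rows of a gene, the one of highest mean was used. By RefSeq, a few further symbols fit the rule and are not members. Among them, Ndufb1 and the pseudogene Cox6c2 are not analysed here, and Ndufb4 and Cox7c had only rows that also carry another symbol. Cyc1, Ndufab1 and Ndufa4l2 lie outside the rule and are given with the related genes. Ndufa4 is counted with complex I by its symbol, although its protein is now assigned to complex IV, and Cox7a2l is the factor that joins complexes III and IV into supercomplexes.

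RNA came from primary cultures of OF1 mouse brain taken at embryonic day 17. Fetal calf serum had let the cells differentiate into neurons and glia together. Both groups were then kept in serum-free medium free of growth factors, and 3 samples received vehicle, although a label also calls them not treated, while 3 received 1,25-dihydroxyvitamin D3 (1,25D), the hormonally active form of vitamin D, at 10 nM. Each of the 6 Affymetrix arrays measured a single RNA sample, and the labels call the 3 arrays of a group biological replicates. Neither the length of treatment nor any pooling of animals is given in the sources used here, and p-values therefore speak only of the spread among these arrays. The cultures mix cell types, so fewer cells of a type and less RNA per cell cannot be told apart.

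The respiratory chain sits in the inner mitochondrial membrane. Complex I takes electrons from NADH and complex II takes them from succinate, both hand them to ubiquinone, and complex III passes them through cytochrome c to complex IV, which reduces oxygen to water. Complexes I, III and IV pump protons, and ATP synthase uses the resulting gradient to make the ATP that neurons spend on ion pumping and transmission. Most subunits are encoded in the nucleus, where the transcription factors NRF1 (nuclear respiratory factor 1) and GABP, an ETS family factor, are known regulators of many of them, and YY1 of several.

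Promoter sequences from RefSeq, 250 bases before to 50 after the start of transcription on mouse build GRCm38.p6, were held for 51 of the 63 genes. They were searched on both strands for the NRF1 core GCGCATGC, the ETS core CCGGAAG and the YY1 core AAGATGGC, which do not overlap one another in the examples printed here. The examples show each core, and include Uqcr11 and Uqcrh, whose values are among those followed most closely in the results. Capitals mark the matched letters, in either orientation.
Uqcr11: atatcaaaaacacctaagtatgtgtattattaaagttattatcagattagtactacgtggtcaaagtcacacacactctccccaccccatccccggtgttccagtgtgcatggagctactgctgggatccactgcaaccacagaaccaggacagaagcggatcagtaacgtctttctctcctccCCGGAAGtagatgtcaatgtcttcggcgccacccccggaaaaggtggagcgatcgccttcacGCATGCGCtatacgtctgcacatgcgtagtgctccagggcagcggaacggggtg
Uqcrh: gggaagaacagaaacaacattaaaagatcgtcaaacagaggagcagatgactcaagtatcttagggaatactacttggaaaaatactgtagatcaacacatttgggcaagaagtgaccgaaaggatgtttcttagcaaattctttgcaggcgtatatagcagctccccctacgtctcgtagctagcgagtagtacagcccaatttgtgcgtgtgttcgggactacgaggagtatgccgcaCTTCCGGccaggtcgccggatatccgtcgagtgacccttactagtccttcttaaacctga
Sdhb: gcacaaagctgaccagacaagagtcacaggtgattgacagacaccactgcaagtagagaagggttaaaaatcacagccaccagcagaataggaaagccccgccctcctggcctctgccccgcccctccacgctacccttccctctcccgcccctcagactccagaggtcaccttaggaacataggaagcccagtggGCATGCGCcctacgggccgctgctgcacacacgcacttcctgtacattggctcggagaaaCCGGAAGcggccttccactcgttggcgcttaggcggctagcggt
Ndufs7: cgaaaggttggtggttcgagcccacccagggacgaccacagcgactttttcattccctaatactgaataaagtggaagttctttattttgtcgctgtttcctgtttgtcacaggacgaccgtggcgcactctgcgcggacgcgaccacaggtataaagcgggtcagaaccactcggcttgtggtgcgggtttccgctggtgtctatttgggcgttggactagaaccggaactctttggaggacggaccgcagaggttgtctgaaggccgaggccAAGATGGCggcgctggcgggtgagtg
The Uqcr11 window is chr10:80406772-80407071 on the minus strand, with the ETS core first and the NRF1 core beside the start. The Uqcrh window is chr4:116075021-116075320 on the minus strand and holds the ETS core as its reverse complement. The Sdhb window, chr4:140961021-140961320 on the plus strand, has the NRF1 core upstream and the ETS core just after the start. The Ndufs7 window, chr10:80249199-80249498 on the plus strand, has the YY1 core within its transcribed part.

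The NRF1 core was present in 7 of the 51 promoters (13.7%), the ETS core in 11 (21.6%) and the YY1 core in 7 (13.7%). Among the 15563 tested genes with a promoter the shares were 4.29%, 13.6% and 3.77%, and over the 27025 genes of the promoter table they were 3.05%, 9.93% and 3.19%. At least 1 of these cores stood in 22 members (43.1%), beside 19.8% of tested genes. The NRF1 and ETS cores were found in all 4 complexes. The YY1 core was found in 7 of the 31 complex I genes with a promoter, and in 0 of 3, 0 of 5 and 0 of 12 in complexes II to IV. It stood in Ndufa3, Ndufa9, Ndufb8, Ndufc1, Ndufs4, Ndufs6 and Ndufs7, each time on the strand of the gene and beginning 23 to 39 bases after the start. These counts are descriptions of letters, and no difference between complexes was tested.

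On the arrays the respiratory chain genes were among the brighter ones. The upper quartile of mean log2 intensity over all genes was 9.27, and 51 of the 63 members lay above it, 11 in the middle of the range and 1, Cox7b2, in the lowest 25%. Mean log2 intensity ran from 8.09 to 12.68 (median 10.60) in complex I, from 10.57 to 12.21 (median 11.31) in complex II, from 9.41 to 12.55 (median 10.85) in complex III and from 5.46 to 13.27 (median 10.17) in complex IV. Probes of different genes differ in brightness, so these medians rank the signal of the arrays and not the amount of each transcript.

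The median intensity of the 6 arrays lay between 240.4 and 252.9. Control and 1,25D arrays of the same number deviated together, and the replicate number was therefore also fitted as a block. The arrays numbered 1 of both groups held exactly equal values for 1094 genes (5.49%), whereas any other 2 arrays shared between 1 and 19. Among members this touched only Ndufb3. Defining markers of the labelled cell types were read without a detection call: neuron markers had mean log2 intensities of 7.39 to 10.80 over the list of 8, and the 8 astrocyte markers 7.81 to 13.04.

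No subunit of complexes I to IV rose or fell in the 1,25D cultures by the test across all genes. In limma, 0 of 63 members had an adjusted p under 0.05 without the block, where 5 genes in all did (0.0251%), and the lowest adjusted p of a member was 0.9998. With the block, again 0 members were called, beside 18 of all genes (0.0903%), and the lowest adjusted p was 0.489. At an unadjusted p under 0.05, limma without the block held 0 members and 295 of all genes (1.48%). With the block it held 5 members higher in 1,25D (Ndufb9, Cox5a, Uqcrh, Uqcr10 and Uqcr11) and 0 lower, where 3.16% of all genes were higher and 2.61% lower. The folds of members spanned 0.96 to 1.26. Without the block, the difference was within 1 standard error of 0 in 46 of the 63. The median standard error of members was 0.14 without the block and 0.08 with it.

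The direction of these small differences was uneven. In 52 members (82.5%) the mean log2 intensity was above that of controls, compared with 53.0% of all genes and 40.0% of genes in the brightest 25%. With the arrays centred on their medians it was above in 45 members (71.4%) and 43.7% of all genes. The median difference, 1,25D minus control, was 0.09 over the 63 members, with medians of 0.10, 0.07 and 0.09 in the pairs of equal number (SD 0.02). Over all genes it was 0.01, and over the brightest 25% of genes -0.02. The difference was above 0 in all 3 pairs for 25 members, beside 14.8% of all genes, and below 0 in all 3 for 1, Cox7b2, beside 11.0%. The 3 arrays of a group lay apart from those of the other for 3 of 63 members, beside 4.15% of all genes. These were Cox8c, Ndufa7 and Ndufc2, each higher in 1,25D. Leaving out 1 array breaks a pair and brings in the gap between replicate numbers: the median was then 0.17 without control 1, 0.13 without 1,25D 2, 0.15 without 1,25D 3, 0.01 without control 3 and 0.0001 without 1,25D 1. With both arrays of a number left out together it was 0.08, 0.11 and 0.09.

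**Figure D1:**
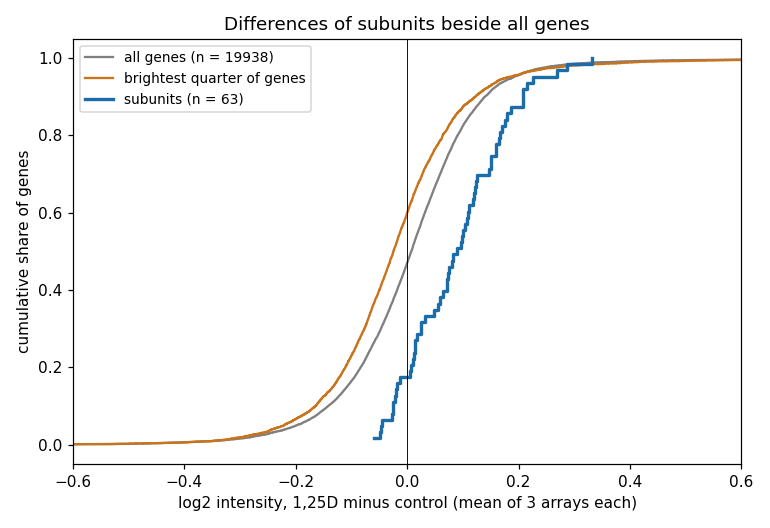
Cumulative share of genes (vertical axis) by log2 intensity difference, 1,25D minus control over 3 arrays each (horizontal axis), for the 63 subunits, all 19938 genes and the brightest 25% of genes. At 0 the curve of the subunits lies below both others, with 82.5% of the subunits above 0 beside 53.0% of all genes. It ends at 0.33, and both other curves reach further.

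In complex I, 27 of 34 subunits had a difference above 0 and 13 of 34 had it in all 3 pairs. The median was 0.09, with pair medians of 0.08, 0.04 and 0.12 (SD 0.04). It was 0.17 without control 1, 0.02 without control 3, 0.005 without 1,25D 1 and 0.04 with both arrays numbered 3 left out.

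Ndufb9, an accessory subunit of the membrane arm, had the largest difference of all members. Its log2 intensity was 11.04, 10.76 and 10.59 in controls 1 to 3 and 11.42, 11.12 and 10.85 in the 1,25D arrays. Each 1,25D array exceeded the control of its number by 0.26 to 0.37, although the groups overlapped because arrays numbered 3 were low in both. The difference was 0.33 ± 0.17 (SE, n = 3 each; fold 1.26) and, with the replicate block, 0.33 ± 0.08 (limma adjusted p = 0.489).

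Ndufs5, an accessory subunit facing the intermembrane space, was the member with the smallest p without the block. It stood at 8.19, 8.34 and 8.22 in controls and at 8.52, 8.32 and 8.55 in 1,25D. Arrays 1 and 3 were higher in 1,25D and arrays 2 were level, giving 0.21 ± 0.10 (SE). A second row, shared with the pseudogene Ndufs5-ps, differed by 0.01, so the reading of Ndufs5 is uncertain.

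Ndufa7 and Ndufc2, both accessory, were the complex I genes whose groups did not overlap, 2 of 34 beside 4.15% of all genes. Ndufa7 read 9.88, 9.87 and 9.89 in controls and 10.05, 9.96 and 9.98 in 1,25D, a difference of 0.12 ± 0.09 (SE). Ndufc2 read 12.35, 12.19 and 12.29 against 12.49, 12.40 and 12.39, a difference of 0.15 ± 0.09. Both were chosen for naming after their values were seen.

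Ndufa1 and Ndufs6 each owed their mean difference to a single pair. Ndufa1, an accessory subunit encoded on the X chromosome, was 8.74, 8.69 and 8.17 in controls and 8.69, 8.68 and 8.86 in 1,25D, so that pair 3 differed by 0.69 and pairs 1 and 2 lay below 0. Ndufs6, which carries a zinc site and is needed late in assembly, was 9.92, 9.86 and 9.20 against 9.78, 9.94 and 9.80, and only pair 3 differed by as much as 0.60. These 2 were likewise named after their values were seen.

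The 6 measured core subunits, most of which carry the flavin or iron-sulfur clusters, had a median difference of 0.00 with 3 of 6 above 0. The 28 accessory subunits had a median of 0.10 with 24 of 28 above 0. The difference between these medians was not tested. Ndufv1, which binds NADH and the flavin, differed by 0.08 ± 0.16 (SE) and its partner Ndufv2 by 0.01 ± 0.10. Ndufs1, the large iron-sulfur subunit, differed by -0.03 ± 0.19. Ndufs3, Ndufs7 and Ndufs8 differed by -0.02 ± 0.12, -0.03 ± 0.12 and 0.15 ± 0.22. Ndufs7, whose promoter shows the YY1 core, was the brightest complex I gene and differed by less than its error, with values of 12.60, 12.87 and 12.62 in controls and 12.71, 12.77 and 12.53 in 1,25D.

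Ndufs4, an accessory subunit whose loss causes Leigh syndrome, had the lowest difference of complex I at -0.05 ± 0.16 (SE). Ndufa12 differed by -0.02 ± 0.10 and Ndufb2 by 0.17 ± 0.11. Ndufa6 was the complex I gene with the widest spread, 0.94 between its lowest and highest array, and a difference of 0.00 ± 0.26. Ndufa4 differed by 0.15 ± 0.15, above 0 in all 3 pairs. The rows shared by Ndufb4 and Ndufb4b differed by 0.06 and 0.08.

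**Figure D2:**
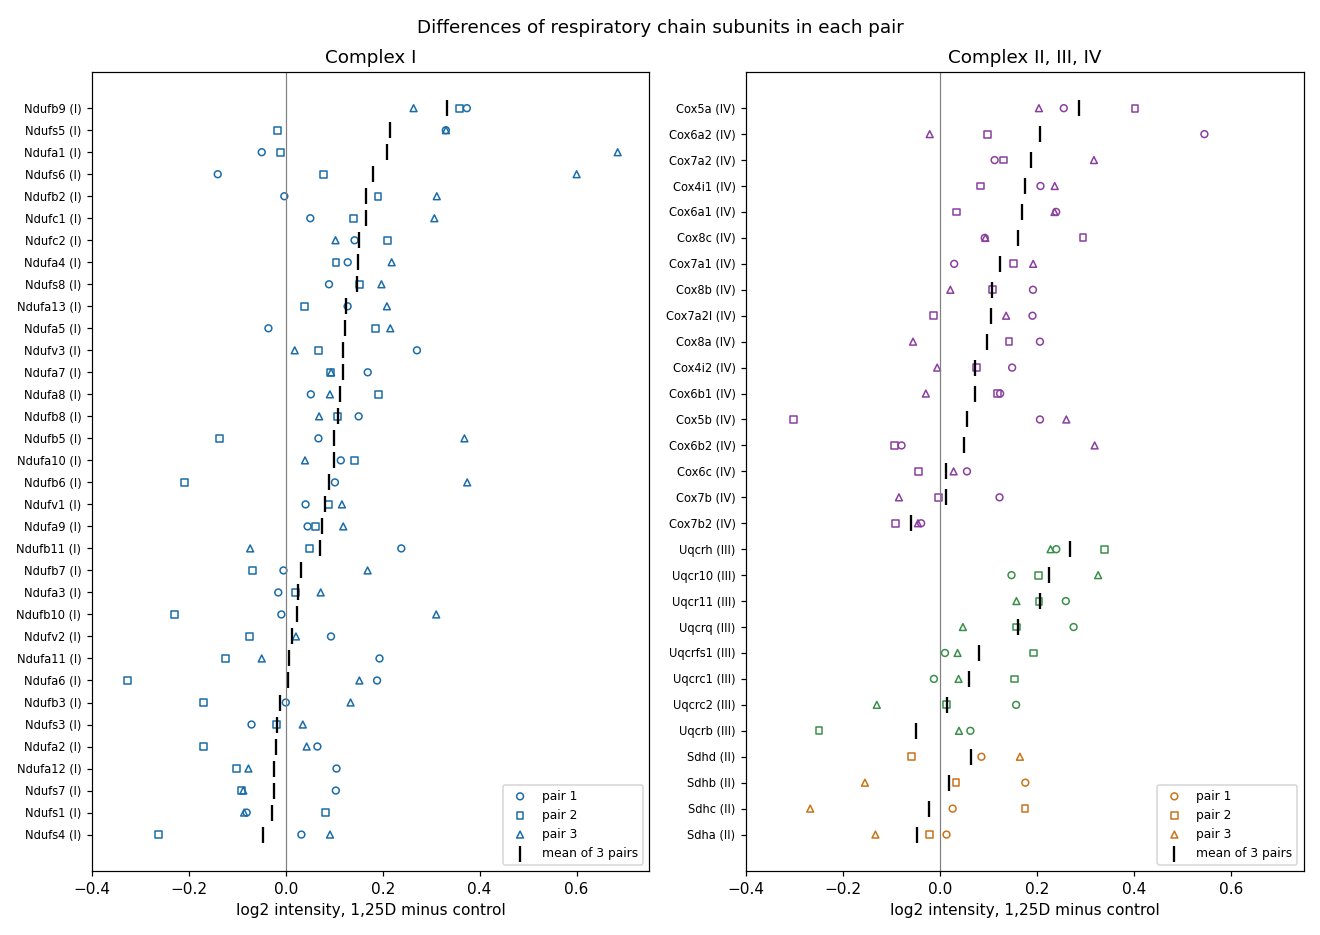
Log2 intensity difference, 1,25D minus control, in each pair of equally numbered arrays (horizontal axis) for each of the 63 subunits, grouped by complex; symbols are the pairs and the bar is their mean. Points of Ndufb9, Cox5a and Uqcrh lie above 0 in all 3 pairs, and Ndufa1 and Ndufs6 have 1 distant point each.

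The 4 subunits of complex II, or succinate dehydrogenase, which is also an enzyme of the citric acid cycle, had a median of -0.00, with pair medians of 0.06, 0.01 and -0.14 (SD 0.10), and 0 of 4 were above 0 in all 3 pairs. With 1 array left out the median ran from -0.09 without 1,25D 1 to 0.08 without 1,25D 3, and it was -0.06 without control 3 and 0.06 without control 1. With both arrays of number 1, 2 or 3 left out it was -0.05, -0.02 and 0.06, so its sign was not settled. Sdha, the flavoprotein that oxidises succinate, read 11.86, 11.84 and 11.76 in controls and 11.87, 11.82 and 11.63 in 1,25D (-0.05 ± 0.10, SE). Sdhb, the iron-sulfur subunit whose promoter holds both the NRF1 and the ETS core, read 11.00, 10.78 and 10.64 against 11.18, 10.81 and 10.49 (0.02 ± 0.18). In both genes the 1,25D array was the higher of the pair numbered 1 and the lower of the pair numbered 3.

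Sdhc and Sdhd anchor the enzyme in the membrane and bind ubiquinone. Sdhc stood at 12.27, 12.05 and 12.34 in controls and 12.30, 12.23 and 12.07 in 1,25D (-0.02 ± 0.12, SE). Sdhd stood at 10.81, 10.50 and 10.32 against 10.90, 10.44 and 10.49 (0.06 ± 0.17). Neither differed in the same direction in all pairs, and the groups overlapped for all 4 genes of the complex.

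In complex III, 7 of 8 subunits had a difference above 0 and 5 of 8 had it in all 3 pairs. The median was 0.12, with pair medians of 0.15, 0.18 and 0.04 (SD 0.07). It was 0.22 without control 1, 0.26 without 1,25D 3, -0.001 without control 3 and -0.004 without 1,25D 1.

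Uqcrh is the hinge protein that helps cytochrome c dock on cytochrome c1. Its log2 intensity was 11.45, 10.82 and 11.18 in controls and 11.69, 11.16 and 11.41 in 1,25D. Each pair was 0.23 to 0.34 higher in 1,25D, a smaller step than that between controls 1 and 2. The difference was 0.27 ± 0.19 (SE, n = 3 each), and 0.27 ± 0.08 with the replicate block (limma adjusted p = 0.673).

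Uqcr10 and Uqcr11 are small accessory subunits of the complex. Uqcr10 read 9.68, 9.43 and 9.11 in controls and 9.83, 9.64 and 9.44 in 1,25D (0.23 ± 0.17, SE; blocked limma adjusted p = 0.795). Uqcr11 read 10.33, 10.41 and 10.17 against 10.59, 10.62 and 10.33 (0.21 ± 0.12; blocked limma adjusted p = 0.830). All pairs of both genes were higher in 1,25D with overlapping groups, and a dimmer second row of Uqcr11 differed by 0.09.

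The named catalytic and core members of complex III had differences within their errors. Uqcrfs1, the Rieske iron-sulfur protein, differed by 0.08 ± 0.19 (SE). Uqcrc1 and Uqcrc2, the large core proteins on the matrix side, differed by 0.06 ± 0.16 and 0.01 ± 0.13. Uqcrb, a small subunit near the ubiquinone site, was the only member of the complex below 0, at -0.05 ± 0.12, and its other rows differed by -0.09 and -0.07. Cyc1, which encodes cytochrome c1 and lies outside the symbol rule, differed by 0.06 ± 0.13.

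In complex IV, 16 of 17 subunits had a difference above 0 and 7 of 17 had it in all 3 pairs. The median was 0.10, with pair medians of 0.15, 0.08 and 0.09 (SD 0.04). It was 0.18 without control 1, 0.16 without 1,25D 2 and without 1,25D 3, 0.02 without control 3, 0.0001 without 1,25D 1, and 0.06 with both arrays numbered 1 left out. Cox7c is not among the 17 genes. Its rows, shared with Gm12338, each differed by -0.01, with pair 2 below 0 and pairs 1 and 3 above 0.

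Cox5a, a matrix-side subunit, had the largest difference of the complex. It read 10.35, 10.13 and 9.60 in controls and 10.61, 10.54 and 9.80 in 1,25D. The 1,25D array was 0.20 to 0.40 higher in each pair, while arrays 3 lay below arrays 1 by more than that in both groups. The difference was 0.29 ± 0.26 (SE, n = 3 each), and 0.29 ± 0.08 with the replicate block (limma adjusted p = 0.665). Cox5b, its zinc-binding neighbour, differed by 0.05 ± 0.21, with pair 2 at -0.30.

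Complex IV is the only one of these complexes with many tissue-restricted isoforms, which replace the general subunit in muscle, lung or testis. Each gene is compared here with itself between groups. Cox4i1, which is general, read 11.17, 10.96 and 10.51 in controls and 11.37, 11.04 and 10.74 in 1,25D (0.18 ± 0.21, SE). Cox4i2, the lung and vascular form, read 7.19 to 7.44 in controls and 7.19 to 7.59 in 1,25D (0.07 ± 0.13). Both differences were smaller than their error.

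In the Cox6a family the general Cox6a1 differed by 0.17 ± 0.13 (SE), with all pairs above 0. The heart and skeletal muscle form Cox6a2 read 8.72, 8.48 and 8.57 in controls and 9.26, 8.57 and 8.55 in 1,25D. Its difference of 0.21 ± 0.20 came from the 1,25D array numbered 1, and without it the value was -0.03. In the Cox6b family, Cox6b1 differed by 0.07 ± 0.09 and the testis form Cox6b2 by 0.05 ± 0.23. Cox6c, the brightest member of all, read 13.20 to 13.33 in controls and 13.22 to 13.33 in 1,25D (0.01 ± 0.09).

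In the Cox7 families the general Cox7a2 read 10.52, 10.32 and 10.30 in controls and 10.63, 10.45 and 10.62 in 1,25D (0.19 ± 0.11, SE). Cox7a1, the heart and muscle form, read 10.00, 9.95 and 8.68 against 10.03, 10.10 and 8.87 (0.12 ± 0.43). It had the widest spread of any member, 1.42 between its lowest and highest array, and that spread lay between replicate numbers and not between treatments. Cox7a2l differed by 0.10 ± 0.15, Cox7b by 0.01 ± 0.14, and the testis form Cox7b2, the dimmest member, by -0.06 ± 0.11. Second rows of Cox7a2l and Cox7b differed by 0.25 and 0.14, so their brightest rows do not give the larger values.

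In the Cox8 family the general Cox8a differed by 0.10 ± 0.12 (SE) and the heart and muscle form Cox8b by 0.11 ± 0.10. The testis form Cox8c read 7.62, 7.45 and 7.65 in controls and 7.71, 7.74 and 7.74 in 1,25D. Its groups did not overlap, in 1 of 17 genes of the complex, beside 4.15% of all genes. The difference was 0.16 ± 0.10. The 7 tissue-restricted isoforms had a median difference of 0.11 and the other 10 members of the complex 0.10. Beside these isoforms, the 10 striated muscle markers had mean log2 intensities of 6.42 to 8.55 and a median difference of 0.01 with 6 above 0, and the 8 germ cell and testis markers 5.57 to 7.61 and 0.07 with 6 above 0. In the dimmest 25% of all genes, 63.8% had a difference above 0. Whether muscle or germ cells contributed signal was not tested.

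**Figure D3:**
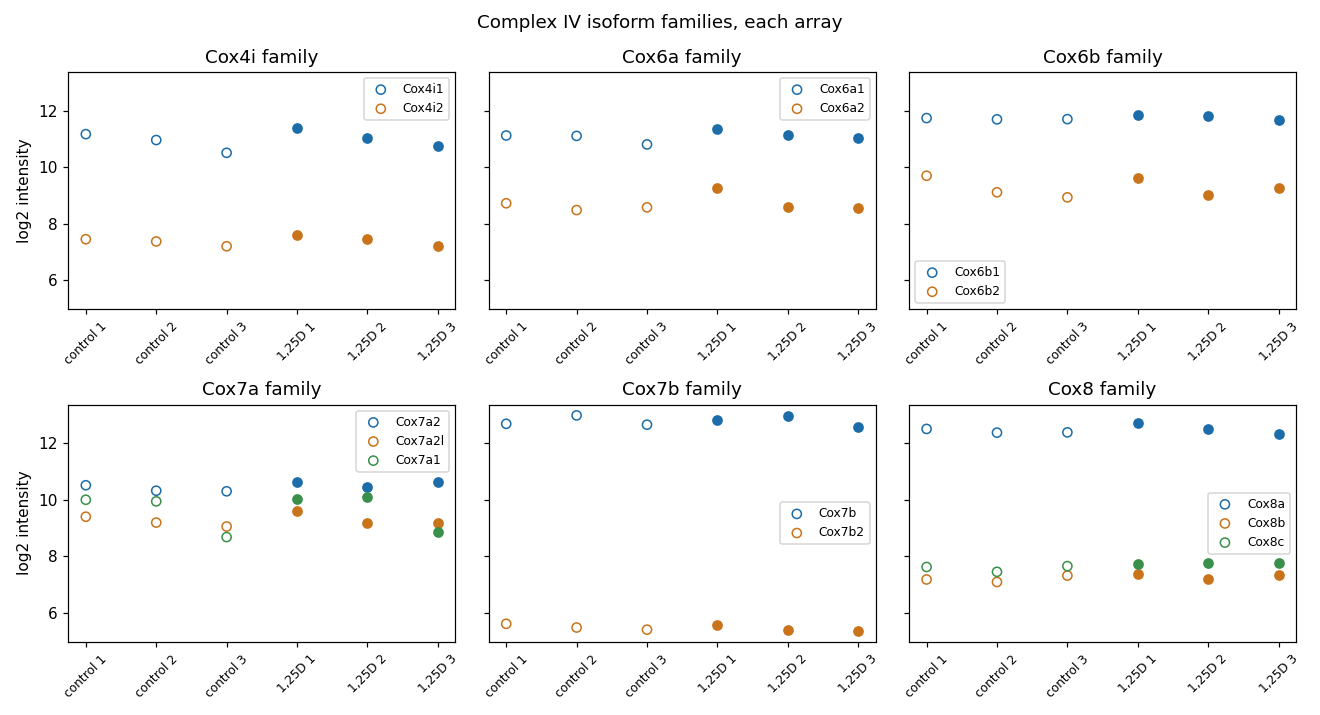
Log2 intensity (vertical axis) of complex IV isoform families in each of the 6 arrays (horizontal axis); colours are genes, open circles controls and filled circles 1,25D. Cox7a1 lies at 10.00 in control 1 and 10.03 in 1,25D 1, and at 8.68 in control 3 and 8.87 in 1,25D 3.

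The subunits also differed between replicate numbers. The median deviation of members from their own mean was 0.10, -0.02 and -0.17 in controls 1 to 3 and 0.18, 0.01 and -0.08 in the 1,25D arrays. In 53 of 63 members (84.1%) the gap between replicates 3 and 1, means of 2 arrays each, exceeded the treatment difference, beside 73.9% of all genes. Replicate 3 minus replicate 1 had a median of -0.28 over members, against -0.04 over all genes and 0.03 over the brightest 25%. By complex it was -0.23, -0.31, -0.37 and -0.32 for I to IV.

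Both arrays numbered 1 lay above every array of the other numbers, in either group, for 29 members (46.0%), beside 17.2% of all genes. Compared within each group, array 3 was below array 1 in both groups for 47 of 63 members, beside 39.5% of all genes. The limma F test of the replicate number in the blocked fit, which was chosen after the values were seen, called 3 of 63 members (4.76%), beside 1.73% of all genes. These were Cox7a1 (adjusted p = 0.015), Cox5a (adjusted p = 0.041) and Ndufs8 (adjusted p = 0.045). Ndufs8, an iron-sulfur subunit of complex I, read 11.56, 11.32 and 10.83 in controls and 11.65, 11.47 and 11.02 in 1,25D. In all 3 genes array 3 was the lowest of its group, with and without 1,25D.

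**Figure D4:**
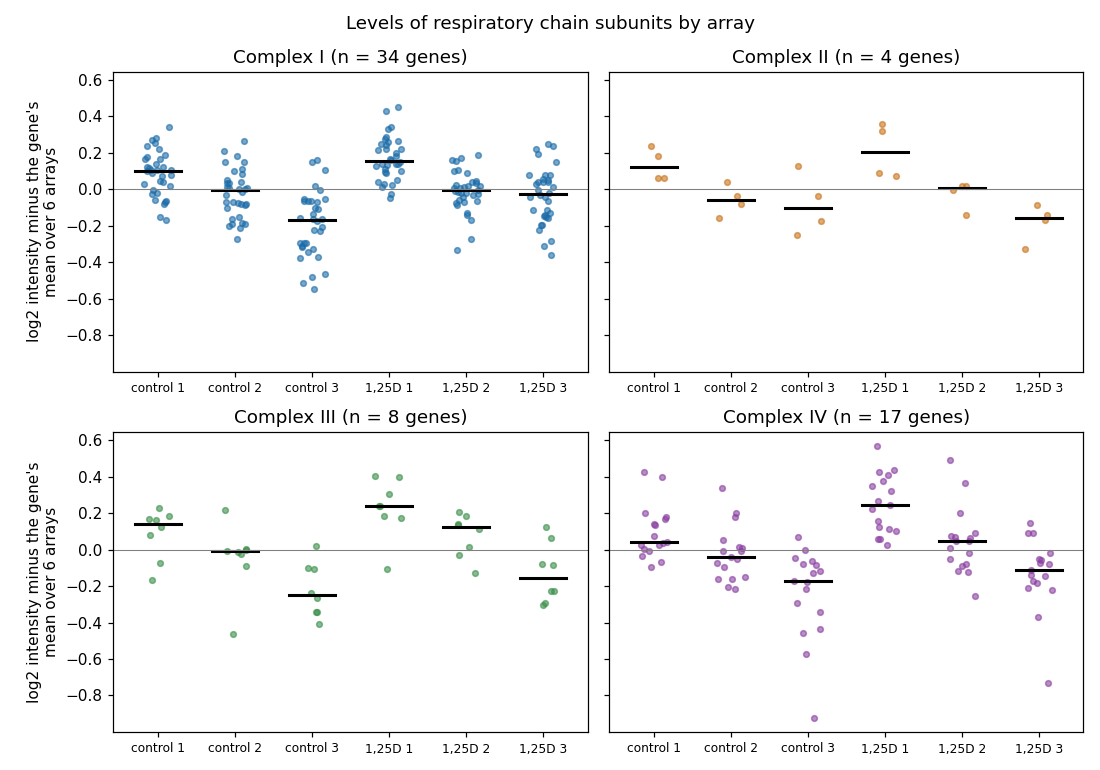
Log2 intensity minus the gene's own mean over 6 arrays (vertical axis) for the subunits of each complex in each array (horizontal axis); points are genes and bars their median. The median over all 63 subunits was lowest in control 3, at -0.17, and highest in 1,25D 1, at 0.18.

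Markers of the cell types in the culture are given beside these values. Between replicates 1 and 3, the 8 neuron markers had a median difference of 0.51, replicate 3 minus replicate 1, the opposite sign to the subunits, and the 8 astrocyte markers -0.30. Between treatments, 0 of 8 neuron markers and 0 of 8 astrocyte markers had a mean above control, with median differences of -0.13 and -0.08, and none was called by limma. The pair medians were -0.25, -0.18 and 0.02 for the neuron list and -0.28, 0.02 and -0.10 for the astrocyte list (SD 0.14 and 0.15), so neither list was below control in every pair. The summed linear intensity of the neuron list was 3680 to 4720 in controls and 2912 to 4492 in 1,25D, and that of the astrocyte list 29342 to 38285 and 28752 to 38417. Rbfox3, the neuronal nuclear protein NeuN, differed by -0.34 ± 0.14 (SE), in a neuron list that ranged from -0.34 to -0.03. The 9 pericyte and smooth muscle markers had a median of 0.02 with 5 above 0, and ranged from -0.23 to 0.48 ± 0.20 for Pdgfrb (blocked limma adjusted p = 0.230). The 8 microglia markers, dim at mean log2 intensities of 6.09 to 8.13, had a median of 0.06 with 7 above 0. The 7 measured oligodendrocyte lineage markers had a median of -0.04 with 3 above 0, and the 6 endothelial markers -0.01 with 3 above 0. The part of these markers in the subunits' differences was not tested.

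Related genes were taken from lists written with earlier results of these data known, and no gene of any of them was called by limma in either fit. The 16 ATP synthase genes, among them the inhibitor Atpif1, had a median difference of 0.07 with 12 above 0. Atp5k, a membrane subunit that joins the dimer, read 9.68, 8.83 and 8.77 in controls and 9.86, 9.10 and 9.20 in 1,25D (0.29 ± 0.29, SE), and Atp5l differed by 0.15 ± 0.12. Slc25a4, the ADP/ATP carrier, read 12.33, 12.16 and 12.11 against 12.48, 12.48 and 12.33 (0.23 ± 0.10). Its list of import and mass genes, 19 measured, had a median of -0.01 with 9 above 0.

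The proteins that assemble the complexes are not part of the finished enzymes. Their median difference was 0.01 for complex I (7 of 14 above 0), 0.04 for complex II (2 of 4), 0.00 for complex III (3 of 6) and 0.03 for complex IV (11 of 17). Ndufaf1, an early complex I assembly factor, differed by -0.21 ± 0.13 (SE), and Cox14, which acts on newly made COX1, by 0.21 ± 0.16. The difference between factors and subunits was not tested.

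Of 15 regulators of mitochondrial biogenesis, 5 had a difference above 0 and the median was -0.07. Nrf1 differed by 0.05 ± 0.09 (SE), Gabpa, the DNA-binding part of GABP, by -0.06 ± 0.12, and Tfam, which packages and transcribes mitochondrial DNA, by -0.07 ± 0.14. Ppargc1a, the coactivator that drives the programme in many tissues, differed by -0.06 ± 0.12 and Ppargc1b by 0.21 ± 0.18. Esrra, a nuclear receptor partner of both, differed by 0.11 ± 0.20.

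Over the rest of the mitochondrion, 14 citric acid cycle genes had a median difference of 0.01, 22 mitochondrial ribosome genes 0.04 and 13 genes of electron carriers and coenzyme Q synthesis -0.01. The 4 measured uncoupling proteins had a median of 0.07 with 4 above 0. Their mean log2 intensities were low, 6.27 to 7.80, and in the dimmest 25% of all genes 63.8% were above 0. Mrpl1, a ribosomal protein, differed by -0.28 ± 0.11 (SE) with every 1,25D array below every control. Such separation was seen in 1 of the 22 genes of its list, beside 4.15% of all genes in either direction. In that list 14 of 22 genes had a difference above 0. Cycs, cytochrome c, differed by -0.04 ± 0.10. Of 13 subunits encoded in mitochondrial DNA, 2 had a row with a single symbol, and the others are not analysed here: ND3 of complex I differed by 0.03 ± 0.21 and COX2 of complex IV by 0.03 ± 0.12. Between replicates 1 and 3 the citric acid cycle and ATP synthase genes shifted by medians of -0.37 and -0.35, beside -0.28 for the subunits. The mitochondrial ribosome genes shifted by -0.23, the import and mass genes by -0.02, the regulators of biogenesis by -0.03 and the uncoupling proteins by 0.01.

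**Figure D5:**
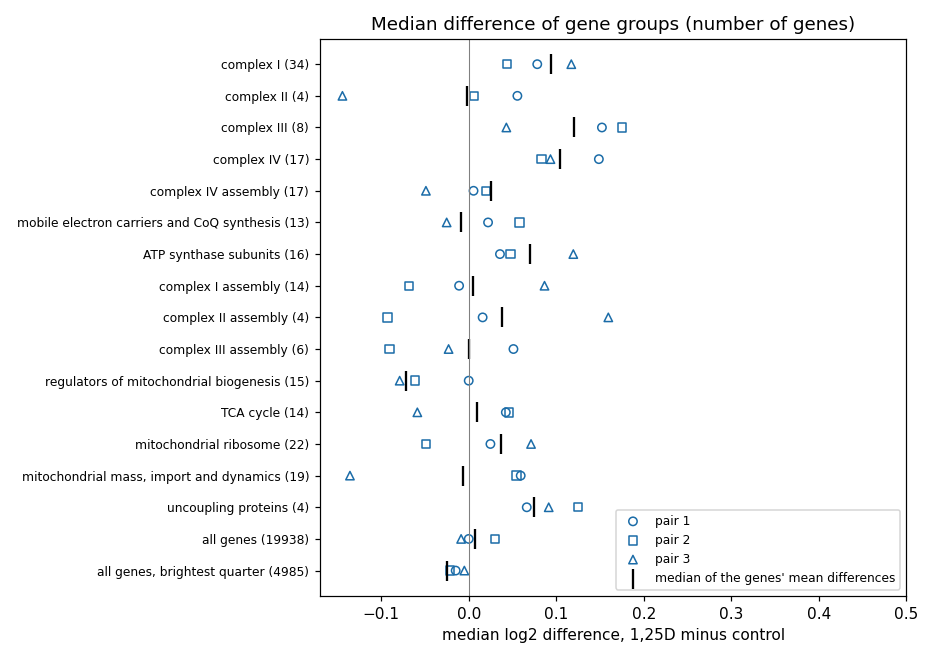
Median log2 difference, 1,25D minus control (horizontal axis), of each complex and related gene list, with the number of genes in brackets; symbols are the medians in the 3 pairs and the bar is the median of the genes' mean differences. Complexes I, III and IV lie at 0.09, 0.12 and 0.10 with all 3 pair medians above 0, and complex II at -0.00 with pair 3 at -0.14.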

How the data were processed

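The deposited values are linear intensity values per transcript cluster, which the authors made by RMA, using Affymetrix Expression Console, as recorded per the submitters' processing notes; no versions are stated. RMA gives no detection call, and differences of dim genes are compressed. The number of arrays limits the precision. Of 35556 rows, GEO's platform annotation paired 21789 with 1 gene symbol, for 19938 genes, 1621 with several and left 12146 unnamed here. For a gene with several rows the row of highest mean was used: 10 of the 63 members had more than 1.

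Log2 was taken of the deposited intensity, and 1,25D was compared with control over 3 arrays each in limma 3.58.1 (R 4.3.3; lmFit, then eBayes), with Benjamini-Hochberg adjustment over all 19938 genes, a threshold of 0.05 and no replicate block. The labels give no meaning to equal replicate numbers. Deviations from the group means correlated at 0.51, 0.65 and 0.46 over all genes for arrays 1, 2 and 3 of both groups, so the numbers were taken to pair the arrays and the blocked value is given where it bears on a result. An exact permutation test of 3 arrays against 3 cannot go below 0.10, so none was used.

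Members and gene lists were chosen with earlier results of these data known. Named members were those with the 5 smallest unadjusted p in each direction, the brightest, dimmest and most variable of each complex, all isoform families, all Sdh genes and the core subunits, and, for the lists, some of the 2 genes of smallest p in each and a few fixed ones; members named besides are said to be so or stand in a count. A planned comparison of isoform proteins was not run. The fit was tested on simulated data with added differences larger than that of any member, so that test does not speak to differences of the size seen here. Alternatives were quantile normalisation, median centring, leaving out dim genes, the mean of a gene's rows, the replicate block, no variance moderation, array weights and leaving out arrays. Promoter letters and genomic positions are from RefSeq, GRCm38.p6; the array values carry no coordinates.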

Additional observations from a re-analysis of the deposited data

How the results depend on the processing

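With all settings 0 members were called. The number of all genes called was 5 as reported, 18 with the replicate block, 25 with the block and quantile normalisation (added after the data were seen), 0 without variance moderation, and 0 to 2 when 1 array was left out. The members' median difference of 0.09 became 0.066 with median centring and 0.068 with array weights, and 0.0001 to 0.1722 when 1 array was left out. The same ranges were 0.0049 to 0.1662 for complex I, -0.0891 to 0.0833 for complex II, -0.0042 to 0.2633 for complex III and 0.0001 to 0.1835 for complex IV. Leaving out both arrays of a number, an alternative added after the data were seen, gave 0.0438 for complex I without replicate 3 and 0.0614 for complex IV without replicate 1. Leaving out 1 array breaks a pair, and the difference then carries the gap between replicate numbers. Cox6a2 ranged from -0.0261 (without 1,25D replicate 1) to 0.3296 (without 1,25D replicate 3). Of 233 values of the 39 named members with all arrays kept, 13 had the other sign, in 9 members whose reported difference was at most 0.0548 in size. With 1 array left out, 49 of 234 did, in 26 members. The replicate block changed no member's call. With 3 arrays a group, differences of the size seen here lie within the standard errors of most members in the fit without the block. Standard errors were smaller with the block, and signal over background is unknown.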
